A study of Homo sapiens with 3 samples.

Results

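Ribosome peaks were listed under a group of 206 gene symbols in cells carrying empty vector and in cells carrying wild-type DDX3X. None was listed under them in cells carrying the mutant DDX3X G325E. For 63 of the symbols most peaks lay on the exons of another gene, as described below. A ribosome peak is a stretch of the genome where ribosome-protected RNA fragments piled up above a coverage cut-off, and each library was deposited as a list of such stretches with the gene they were annotated to. The genes were chosen from the peak lists themselves: at least 5 peaks with wild-type DDX3X, at least 3 with vector and 0 with G325E, after large gene families, told by 15 symbol prefixes and including ribosomal proteins, translation factors, histones and heat shock proteins, were left out. Of 3580 genes with a peak in any list, 934 had enough wild-type and vector peaks to qualify, so the 206 genes were 22.1% of those that could have been chosen. The 0 in the G325E list is therefore the selection and not a finding.

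HEK293T cells, an established human embryonic kidney line, were transiently transfected for 24 h with empty pCDNA3.1 vector, with FLAG-tagged wild-type DDX3X or with FLAG-tagged DDX3X G325E, a form of the helicase found in medulloblastoma. The DDX3X constructs were over-expressed in cells that also carry their own DDX3X gene. The labels give 2 µg/ml harringtonine for 90 s followed by 100 µg/ml cycloheximide for all 3 cultures, whereas the study's methods name cycloheximide alone. There was 1 library per construct, so no difference between constructs has a replicate check and no test was made.

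The lists held 11219 peaks for vector, 19920 for wild-type DDX3X and 15680 for G325E, with median lengths of 29, 29 and 30 bp. Read counts are not in these lists, so the depth behind a peak cannot be read from them. By the read totals that the study gives, G325E was the library with the fewest non-duplicated mapped reads and wild-type DDX3X the one with the most, and the part of depth in the results was not tested. The running numbers of the peaks had gaps in the vector list (1952 numbers, 14.8%) and in the wild-type list (3099 numbers, 13.5%), and none in the G325E list. DDX3X itself had 0 peaks with vector, 32 with wild-type DDX3X and 9 with G325E. The labels call the cells neuronal, and 3 of 13 neuronal marker genes had a peak (TUBB3, NEFL and NEFM), against 0 of 8 kidney tubule markers and 2 of 5 epithelial markers.

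DDX3X is a DEAD-box RNA helicase, an enzyme that opens RNA structure with the energy of ATP, and it acts on messenger RNAs during translation initiation. The small ribosomal subunit scans the 5′ untranslated region until it meets a start codon, where the large subunit joins and elongation begins. Harringtonine holds ribosomes that have just initiated, and cycloheximide arrests those that are elongating. A ribosome shields a short stretch of messenger RNA from nuclease, and this stretch is what ribosome profiling reads. A gene with no peak may still have been translated, since stretches under the coverage cut-off are not in a list. In bulk cells, fewer ribosomes per message and less of the message itself cannot be told apart from these lists.

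For 5 of the genes with most peaks, the wild-type peak nearest the start codon that also overlapped a vector peak is shown, so that the stretch of message missing from the G325E list can be read. Up to 30 bases of each peak are given from the hg19 genome in the direction of the message, with the codon at the middle of the peak in capitals.
SCO2, codon 7, minus strand, chr22:50962806-50962835: gctgctgactcggAGCcccacagcttggca
HYOU1, codon 568, minus strand, chr11:118920498-118920527: tggtagaggacagcGCAgaagaggaatcta
PELP1, codon 662, minus strand, chr17:4576290-4576312: gcccttcaggGCCccaccgttcc
PES1, codon 293, minus strand, chr22:30977018-30977046: cctgccacagagGAGgaggccgaggtgga
RCN1, codon 4, plus strand, chr11:32112739-32112768: gacgatggcgcgcGGTggccgcggccgccg

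These windows ranged from 50% GC in HYOU1 to 86.7% in RCN1. The window of RCN1 covered its start codon and that of SCO2 lay near it, while in HYOU1, PELP1 and PES1 the nearest such peak lay far into the coding sequence.

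SCO2, a copper chaperone for the assembly of cytochrome c oxidase, had 13 peaks with vector and 28 with wild-type DDX3X. Of these 41 peaks only 23 lay on its own exons. Its coding sequence held 10 peaks with vector and 11 with wild-type DDX3X, so most of the difference lay outside it. HYOU1, a chaperone of the endoplasmic reticulum, had 15 and 19 peaks, all on its own exons, and its coding peaks ran from codon 566 to codon 989 with vector and from codon 568 to codon 991 with wild-type DDX3X. PELP1, a nuclear scaffold protein that takes part in ribosomal RNA processing, had 15 and 17 peaks, and its coding peaks ran from codon 670 to codon 1124 with vector and from codon 646 to codon 1123 with wild-type DDX3X. In both genes the peaks thus lay in the later part of the coding sequence in both lists.

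RCN1, a calcium-binding protein of the secretory pathway, had 13 peaks in each list, and 15 of these 26 lay on its own exons. TRAP1, the mitochondrial member of the HSP90 chaperone family, had 5 peaks with vector and 21 with wild-type DDX3X, and its coding peaks began at codon 31 in both. C1orf35 had 6 and 21 peaks. FLII, an actin-binding protein of the gelsolin family, had 6 and 17. In TRAP1, C1orf35 and FLII the wild-type peaks thus outnumbered the vector peaks by more than in HYOU1, PELP1 or RCN1.

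FEN1, the flap endonuclease that trims Okazaki fragments, had 12 peaks with vector and 11 with wild-type DDX3X. CCDC137 had 12 and 13 peaks, and ANO8, a member of the anoctamin family, had 12 and 12. RBMXL1, an intron-poor copy of the RNA-binding protein gene RBMX, also had 12 and 12, and its reads may be shared with that parent gene. For these 4 genes the lists with peaks differed by at most 1 peak. Of the 24 peaks under ANO8, only 12 lay on its own exons.

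**Figure D1:**
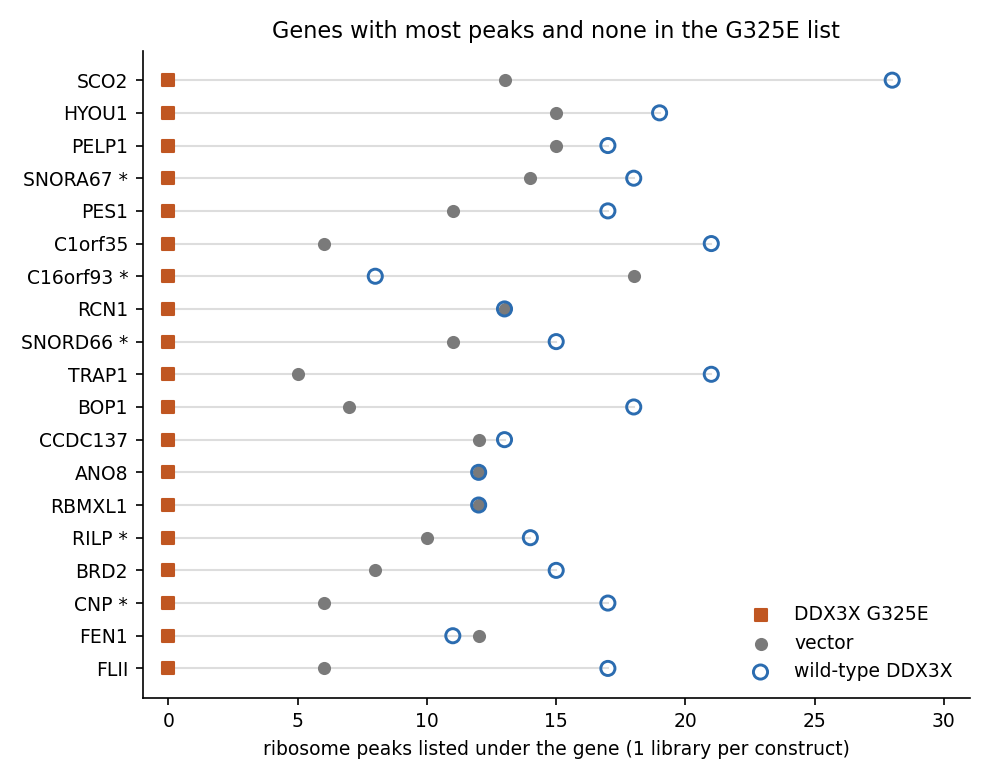
Ribosome peaks listed under the genes with the most vector and wild-type peaks that are described here, with 1 library per construct and the peak number on the horizontal axis. All squares for G325E sit at 0 by the selection. SCO2 reaches 28 peaks with wild-type DDX3X, of which 11 lay in its coding sequence. C16orf93 had more peaks with vector (18) than with wild-type DDX3X (8). An asterisk marks the 5 symbols whose peaks lay mostly on the exons of another gene.

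Genes of nucleolar ribosome biogenesis, the assembly of ribosomes from RNA and protein in the nucleolus, were counted first. Of 34 listed genes, 9 had enough peaks to qualify and 4 of them had no G325E peak, beside 22.1% of all qualifying genes. PES1 and BOP1 are partners in the complex that matures the large ribosomal subunit. PES1 had 11 peaks with vector and 17 with wild-type DDX3X, and BOP1 had 7 and 18. FBL, the methyltransferase fibrillarin, had 8 and 6 peaks. NHP2L1, a protein of the box C/D particles and of the spliceosome, had 6 and 8. The other 5 qualifying genes kept peaks with G325E, from 3 in WDR43 to 22 in UBTF, the RNA polymerase I transcription factor.

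Among splicing and mRNA export genes, 4 of 24 qualifying genes (16.7%) had no G325E peak, beside 22.1% of all qualifying genes. SF3A3, a subunit of the splicing factor SF3A, had 5 peaks with vector and 11 with wild-type DDX3X. BCLAF1 had 6 and 9. PNN encodes pinin, a protein of the exon junction machinery, and it had 3 peaks with vector and 7 with wild-type DDX3X. The study blotted pinin as a protein after knockdown of DDX3X, which is a different condition from G325E expression. All 3 vector peaks of PNN overlapped wild-type peaks and lay between codons 95 and 137, whereas the wild-type peaks extended to codon 707 of 716.

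Chromatin proteins gave 5 of 29 qualifying genes (17.2%), beside 22.1% of all qualifying genes. BRD2, which reads acetylated histones, had 8 peaks with vector and 15 with wild-type DDX3X. HMGB1 had 8 peaks with vector and 15 with wild-type DDX3X, HMGB3 had 5 and 8, and ANP32A had 5 and 12. HMGB1 has many processed copies in the genome, so its peak number is uncertain. The related HMGB2 kept 9 peaks with G325E and HMGN1 kept 18.

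The ubiquitin and SUMO system gave 5 of 21 qualifying genes (23.8%, beside 22.1% of all qualifying genes). They included SUMO3 (9 peaks with vector and 6 with wild-type DDX3X), UBQLN1, a shuttle factor of the proteasome (3 and 11), and the cullin CUL1 (4 and 6). SUMO2 kept 13 peaks with G325E, so the paralogs SUMO3 and SUMO2 were on different sides of the selection.

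For DNA replication and repair, 3 of 11 qualifying genes (27.3%, beside 22.1% of all qualifying genes) had no G325E peak. Besides FEN1 these were TOP1, the type I topoisomerase (3 peaks with vector and 6 with wild-type DDX3X), and GINS2, a subunit of the replicative helicase complex (6 and 6). CDT1, the replication licensing factor, kept 26 peaks with G325E. In lipid, nucleotide and amino-acid synthesis 3 of 12 genes (25%) were found: FDPS, the farnesyl diphosphate synthase (6 and 10), NME1, a nucleoside diphosphate kinase (7 and 10), and IMPDH2 (7 and 15). Of the 22 peaks under IMPDH2, 14 lay on the neighbouring gene QRICH1. Of the 17 peaks under NME1, 14 lay on its exons. On its canonical transcript, however, 0 of the 7 vector peaks lay in coding sequence and 1 in the 5′ untranslated region.

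Of 9 qualifying genes for mitochondrial import, ATP synthase and matrix enzymes, 2 (22.2%) had no G325E peak, beside 22.1% of all qualifying genes. CYCS, cytochrome c, had 6 peaks in each list, and ATP5G1, a subunit of the membrane part of ATP synthase, had 5 in each. Of 11 genes of RNA stability and translation control, 2 had none (18.2%). These were STAU1, a double-stranded RNA-binding protein (3 peaks with vector and 14 with wild-type DDX3X), and TIAL1, an RNA-binding protein of stress granules (10 and 12). Of the 22 peaks under TIAL1, only 9 lay on its own exons, and 1 in each list lay in its coding sequence. Of 9 terminal oligopyrimidine messages outside the left-out families, 2 had none (22.2%), among them PFDN5, a prefoldin subunit (3 and 9). Of the 12 peaks listed under PFDN5, 6 lay on its own exons and 6 on exons of ESPL1. Its coding sequence held 3 peaks in each list. PFDN5 and HYOU1 were also the 2 genes of 18 (11.1%) for protein folding and 14-3-3 proteins.

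Membrane traffic and small GTPases gave 2 of 16 genes (12.5%), RHOC (6 peaks with vector and 13 with wild-type DDX3X) and COPE, a coatomer subunit (4 and 7). With shares of 10% to 25%, beside 22.1% of all qualifying genes, exactly 1 gene was found in each of 7 lists. These were KPNA2, an importin (4 and 9), of 5 for nuclear transport, BUB3, a spindle checkpoint protein (3 and 13), of 6 for mitosis, and ARPC2 of the actin-nucleating Arp2/3 complex (6 and 9) of 10 for actin and motor proteins. The others were MARS, the methionyl-tRNA synthetase (4 and 10), of 6 synthetases, PRDX5, a peroxiredoxin (5 and 5), of 4 antioxidant enzymes, ALDOC (6 and 15) of 7 for glycolysis, and DDIT3 (8 and 8) of 9 stress response and immediate early genes. The peaks listed under ALDOC lay on exons of SPAG5, and those under DDIT3 on exons of MARS1, the same gene as MARS, so neither value belongs to the gene named. In all, 39 of the 206 genes were in at least 1 of the 18 lists, as were 208 of the 934 qualifying genes.

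Where the peaks truly lay was then examined, since a list names the nearest gene for many peaks. Peak positions were laid over the same-strand exons of the GENCODE annotation. For 127 of the 206 genes (61.7%) at least 50% of the vector and wild-type peaks lay on the exons of the gene itself, for 63 (30.6%) most lay on the exons of another gene, and for 16 (7.8%) on neither. Among the 728 qualifying genes with G325E peaks, 15.7% were named after a neighbour. The 95% Wilson intervals of these shares, which cover counting error only, were 24.7% to 37.2% and 13.2% to 18.5%. Of the 630 qualifying genes with peaks on their own exons, 20.2% had no G325E peak, and of the 619 with a protein-coding annotation 19.9%.

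**Figure D2:**
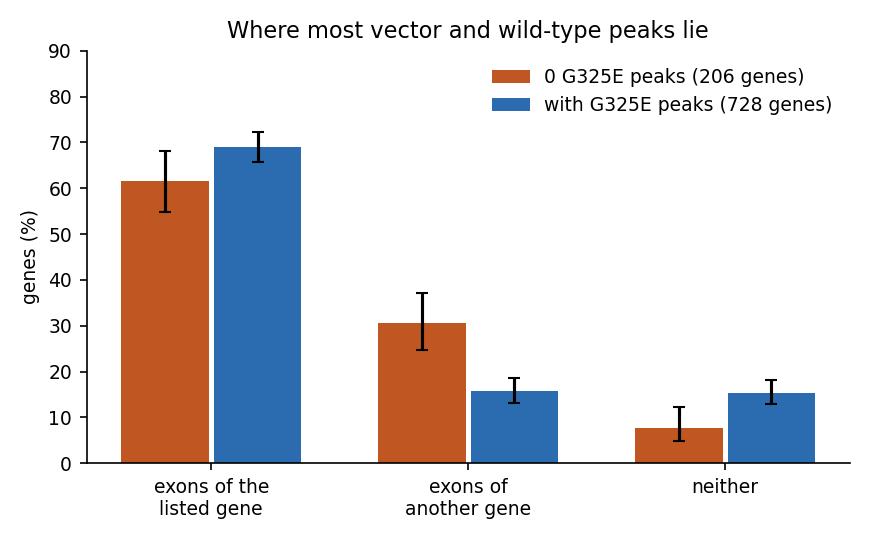
Share of genes whose vector and wild-type peaks lay mostly on exons of the listed gene, on exons of another gene or on neither, for the 206 genes with 0 G325E peaks and the 728 qualifying genes with G325E peaks. Bars start at 0 and error bars are 95% Wilson intervals for counting error, and peaks on another gene's exons made up 30.6% of the first set and 15.7% of the second.

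The 127 genes with peaks on their own exons were spread over 22 autosomes and the X chromosome. On chromosome 1 they included ADAR, C1orf131, C1orf35, C1orf55, CACYBP, CCDC28B, FDPS, GUK1, LRRC47, PRPF38B, RBMXL1, RHOC, RPF1, RRP15, SESN2, SF3A3, SSU72 and VPS72. On chromosome 2 they included ARPC2, DPY30, PDCL3 and SOX11, on chromosome 3 DNAJB11 and the pseudogene PA2G4P4, and on chromosome 4 ELOVL6, GRPEL1 and USP38. Chromosome 5 held MARCHF6, whose symbol had been turned into a date in the list, C5orf15, MRPL36, NSA2 and ZMAT2. Chromosome 6 held BCLAF1, BRD2, CLIC1, FLOT1, SNRPC and SRPK1, and chromosome 7 ABCF2, CUL1, CYCS, MTRNR2L6, TSPAN12 and ZYX. Chromosome 8 held BOP1, C8orf33, CA2, KIAA1967 and the pseudogene NACAP1, chromosome 9 AK1, the pseudogene LOC441454, STOML2, TMEM141 and UBQLN1, and chromosome 10 BUB3, NPM3 and SIRT1. Chromosome 11 held C11orf84, CDCA5, CWC15, FEN1, HYOU1, MCAM, PRDX5, RCN1 and UBXN1. Those on chromosome 12 included ARL6IP4, CLEC2D, ERP29, MARS, METAP2, PFDN5, RAB35 and TROAP.

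Chromosome 13 held HMGB1, chromosome 14 PNN, chromosome 15 ANP32A and ARPP19, and chromosome 16 C16orf53 (now PAGR1), CYB5B, GINS2, POLR3E and TRAP1. Chromosome 17 held ATP5G1, C17orf75, CCDC137, FAM64A, FLII, KDM6B, KPNA2, MPDU1, NFE2L1, NME1, PELP1, POLR2A and ZBTB4, and chromosome 18 KCTD1. Those on chromosome 19 included AKT1S1, ANO8, CALM3, COPE, FBL and TMEM205. Chromosome 20 held CST3, ERGIC3, STAU1 and TOP1, chromosome 21 COL6A1 and SUMO3, and chromosome 22 NHP2L1, PES1, PPIL2, RRP7B (now RRP7BP) and SCO2. The X chromosome held BEX4, DUSP9, HMGB3, LDOC1, MAGED2, TCEAL1, TCEAL4, TCEAL8 and WBP5. Of the 202 genes that could be matched to the annotation, 3 had G325E peaks on their own exons that were listed under another name, with 3 such peaks in MPDU1, 2 in COPE and 2 in C16orf53.

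Another 63 symbols stood for peaks on the exons of a neighbour, and 21 of these symbols were small RNA genes, most of which lie inside a host gene. Small nucleolar RNAs guide the chemical modification of other RNAs, and their genes often sit in introns of genes for translation or ribosome assembly. On chromosome 17, SNORA67 (14 peaks with vector and 18 with wild-type DDX3X) and SNORA48 (5 and 7) carried peaks of the translation initiation factor EIF4A1. On chromosome 3, SNORD66 (11 and 15) carried those of the initiation scaffold EIF4G1 and SNORD69 (4 and 6) those of the nucleolar GTPase GNL3. On chromosome 5, SNORD63 (11 and 8) stood for the mitochondrial chaperone HSPA9. SNORD51 stood for EEF1B2 on chromosome 2, SNORD97 for EIF4G2 on chromosome 11, SNORA27 for RPL21 on chromosome 13, SNORD58C for RPL17 on chromosome 18 and SNORD57 for the nucleolar protein NOP56 on chromosome 20. On the X chromosome, SNORA56 stood for dyskerin (DKC1) and SNORA11 for MAGED2, which also qualified under its own symbol.

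Of the microRNA genes, MIR4258 carried peaks of CKS1B on chromosome 1, MIR4432 of BCL11A on chromosome 2, MIR367 of LARP7 on chromosome 4, MIR4461 of the pseudogene MTND5P11 on chromosome 5 and MIR3652 of HSP90B1 on chromosome 12. MIR3179-1 and MIR3179-3 carried those of NOMO3 and NOMO1 on chromosome 16, MIR3190 of BBC3 on chromosome 19 and MIR4758 of LAMA5 on chromosome 20. For 14 of the 63 symbols the gene that held the peaks belonged to a left-out family.

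Among the longer genes, on chromosome 1 ADAM30 stood for NOTCH2, APOA1BP for GPATCH4, MMP23A for CDK11B and TSNAX-DISC1 for an adjacent unnamed gene. On chromosome 2 CXCR4 and LGALSL carried peaks of pseudogenes. On chromosome 3 ISY1 stood for CNBP, UTS2D for CCDC50 and IMPDH2 for QRICH1, on chromosome 4 LNX1-AS1 for FIP1L1, and on chromosome 5 SMN2 for its near-identical copy SMN1. On chromosome 6 TNXB (12 peaks with vector and 9 with wild-type DDX3X) stood for the stress transcription factor ATF6B, LOC100288198 for HMGN3, LY6G5B for CSNK2B and TMEM14C for PAK1IP1. On chromosome 7 PLOD3 stood for ZNHIT1 and UFSP1 for SRRT. On chromosome 8 DGAT1 stood for the heat shock factor HSF1, KIAA1875 for MAF1, LOC100505676 for RRS1, RDH10 for RPL7, and MED30 for a pseudogene.

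On chromosome 12 DDIT3 stood for MARS1, DIABLO for VPS33A, EP400NL for EP400, LRRC10 for the chaperonin subunit CCT2 and MBD6 for DCTN2, and on chromosome 15 CRTC3 for IQGAP1. On chromosome 16 C16orf93 (18 peaks with vector and 8 with wild-type DDX3X) stood for the ubiquitin ligase RNF40 and UNKL for UQCC4. On chromosome 17 RILP (10 and 14) stood for the splicing factor PRPF8, CNP (6 and 17) for DNAJC7, ALDOC for the spindle protein SPAG5, GGA3 for MRPS7 and C17orf112 for a pseudogene. On chromosome 19 PPP1R13L stood for POLR1G, DYRK1B for FBL, PODNL1 for RFX1 and YJEFN3 for NDUFA13. FAM209A stood for RTF2 on chromosome 20, and GAS2L1 for EWSR1 on chromosome 22.

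For 53 of the 63 symbols (84.1%) no G325E peak lay on the exons of the gene that held the peaks. For the other 10 there were some, among them 7 each on RPL17 and EWSR1, 5 on HSP90B1, 3 on DNAJC7 and 2 each on NOTCH2 and BBC3. Of the 1339 vector and 1778 wild-type peaks listed under the 206 genes, 0 overlapped a G325E peak. A peak takes its gene name from its position, so the selection largely fixes this count.

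The nearest G325E peak of any gene lay at a median of 135656 bp from the peaks of the 206 genes, and further than 100000 bp in 114 of them. It was within 1000 bp in 3 genes, among them MPDU1 (202 bp) and SNORD58C (978 bp). A like distance was seen for the 196 genes with 0 vector peaks, at least 5 wild-type and at least 3 G325E peaks. Their nearest vector peak lay at a median of 192550.5 bp, and further than 100000 bp in 120 of them. The 16 genes whose peaks lay mostly on neither their own nor another gene's exons included SNORA57 and C11orf48 (chromosome 11), PTGFRN (1), TREX1 (3), TBCA (5), ABRACL and DYNLT1 (6), MTDH (8), TIAL1 (10), DYRK2 (12), CD2BP2 and GLIS2 (16), FUZ and RFXANK (19) and PCIF1 (20).

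The number 0 stood apart from the numbers next to it. Of the 934 qualifying genes, 206 had 0 G325E peaks, but only 15 had 1, 27 had 2, 49 had 3 and 79 had 5. The vector list had a like gap. Of 927 genes with at least 5 wild-type and 3 G325E peaks, 196 (21.1%) had 0 vector peaks, 11 had 1 and 34 had 2. Of 685 genes with at least 5 G325E and 3 vector peaks, 15 (2.19%) had 0 wild-type peaks and 7 had 1. These counts share libraries and were not compared by a test.

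**Figure D3:**
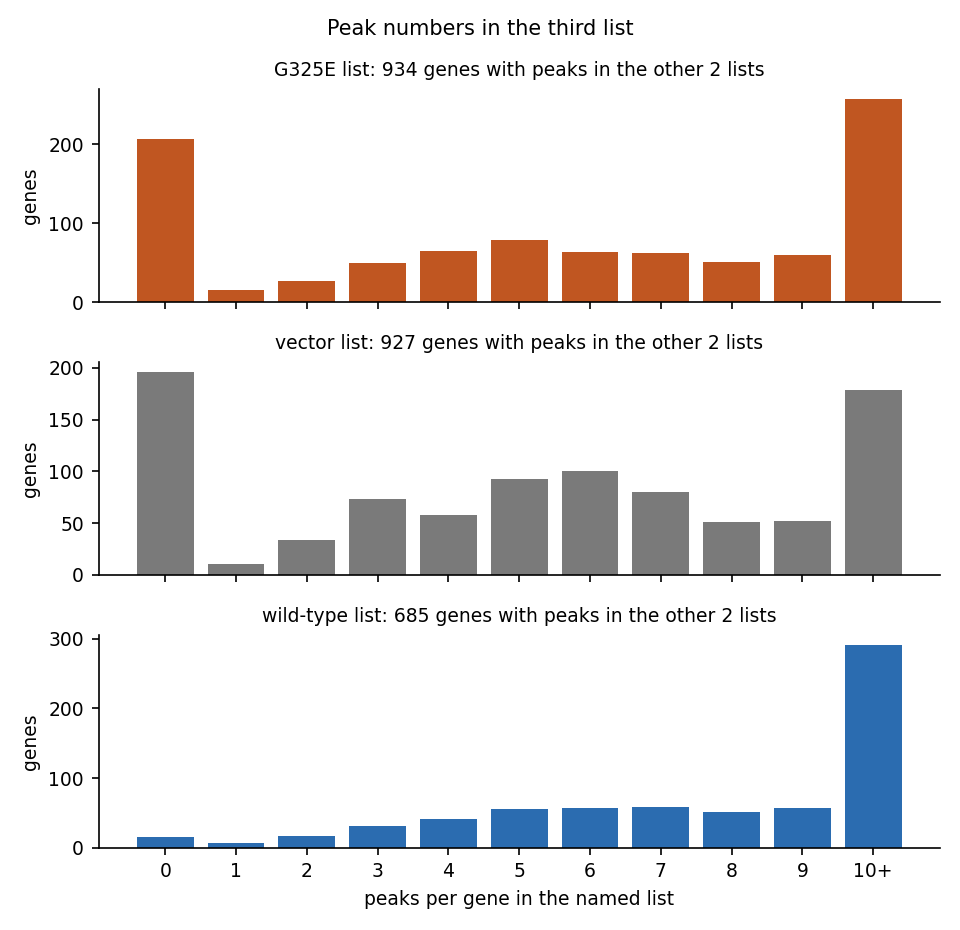
Number of genes by peak number in the G325E, vector and wild-type lists, among genes with at least 5 and 3 peaks in the other 2 lists, with 10 or more peaks in the last bar. The bar at 0 is 206 genes for G325E and 196 for vector, each followed by a bar of 15 or 11 genes at 1, whereas the wild-type list has 15 genes at 0.

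At the edge of the selection, 41 of the 206 genes had exactly 5 wild-type peaks, 22 had exactly 3 vector peaks, and 9 had both, among them CCDC28B and MPDU1. Just outside it, SP1, a transcription factor, had 15 vector, 21 wild-type and 1 G325E peak. SNRPD3 had 11, 14 and 1, YWHAZ 7, 14 and 1, NAP1L1 6, 13 and 1, and CD63 7, 10 and 1.

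The 206 genes had a median of 6 vector and 8 wild-type peaks, against 7 and 9 in the 728 qualifying genes with G325E peaks. The share without a G325E peak was lower in genes with more vector and wild-type peaks: it was 28.2% of 149 genes with 8 to 10 peaks, 25.6% of 336 with 11 to 15, 24.5% of 192 with 16 to 20, 15.1% of 172 with 21 to 30, and 5.88% of 85 with 31 or more. The last class held 5 of the genes, SCO2, HYOU1, PELP1 and SNORA67 among them.

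The genes without a G325E peak were poorer in GC. Over the 123 genes with peaks on their own exons and a coding sequence, the median coding GC content was 53.9% (quartiles 47.0% and 59.0%), against 57.3% (51.5% and 62.8%) in the 496 qualifying genes of that kind with G325E peaks. In 4 equal classes of coding GC content the share without a G325E peak was 29.0%, 20.1%, 18.7% and 11.6%, from the lowest class to the highest. The 95% Wilson intervals were 22.5% to 36.6% in the lowest class and 7.47% to 17.6% in the highest, and they cover the counting of genes in these libraries and not the spread between libraries. For genes without a vector peak the shares in the same classes were 20%, 21.8%, 17.9% and 23.8%. Whether the lists differ in this respect was not tested, with 1 library per construct. GC-poor genes of the 123 included WBP5 (39.4%), NSA2 (40.3%) and BCLAF1 (42.5%), and GC-rich ones included ANO8 (67.0%) and BOP1 (65.4%). The median number of vector and wild-type peaks rose from 14 in the lowest class to 18 in the highest, and its part in the trend was not tested.

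**Figure D4:**
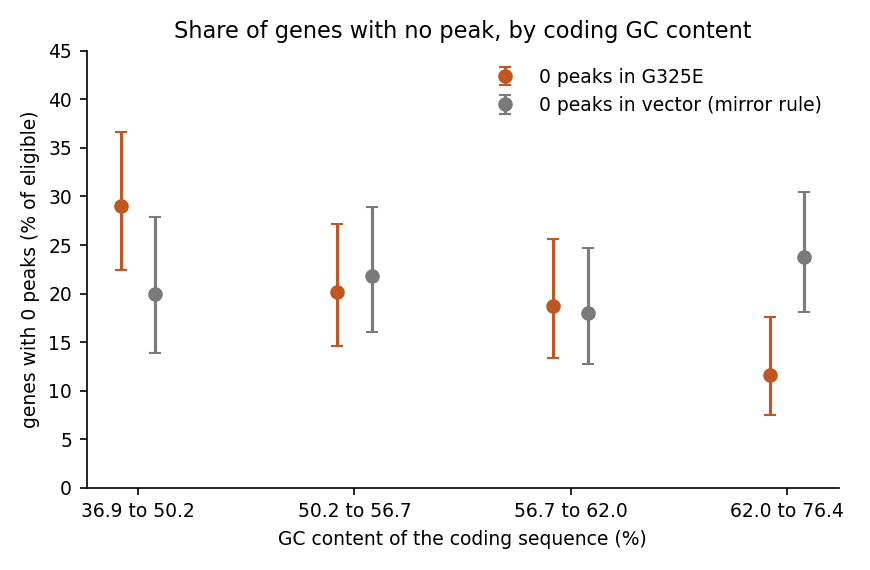
Share of qualifying genes with 0 G325E peaks, and under the mirrored rule with 0 vector peaks, in 4 classes of coding GC content. Points are shares and error bars 95% Wilson intervals for counting error, and the share with 0 G325E peaks goes from 29.0% in the lowest class to 11.6% in the highest while that with 0 vector peaks lies between 17.9% and 23.8%.

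Other features of the genes were compared as well. The median coding length was 915 nt in the 123 genes and 996 nt in the 496 others, and the median length of the 5′ untranslated region was 94 and 110 nt. GC content at the third position of codons had a median of 62.0% against 68.4%, and that of the 5′ untranslated region 66.9% against 70.2%. GC content in the 31 nt around coding peaks was lower too, at 56.2% ± 11.9 (SD over 779 wild-type peaks) against 59.5% ± 11.8 (3442 peaks). In those other genes the G325E peaks had a higher GC content, 64.9% ± 11.9 (2302 peaks), than the vector peaks, 60.4% ± 11.9 (2582 peaks), or the wild-type peaks. Peaks of 1 gene share a transcript, so these SDs describe peaks and not replicates.

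The peaks of the 206 genes lay more often in exons and less often at promoters, as the authors' annotation classes them. Of the wild-type peaks, 62.3% were in exons and 11.8% in the promoter and transcription start class, against 50.1% and 21.4% for the 728 other genes. The vector peaks gave 61.2% and 13.4% against 49.8% and 22.6%. Over canonical transcripts of the 123 genes, 87.6% of wild-type peaks were in coding sequence, 10.01% in the 5′ untranslated region and 2.36% in the 3′ untranslated region. In the other qualifying genes of that kind these shares were 85.3%, 12.5% and 2.11%. For vector peaks the coding shares were 85.6% and 85.3%. The difference was thus smaller over these transcripts than by the authors' classes. The first 10% of the coding sequence held 11.04% of the coding peaks (95% Wilson interval 9.03% to 13.4%), close to the share of an even spread, and 11.8% in the other genes.

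Start codons were less often under a peak. A start codon lay under a peak in both lists in 26 of the 123 genes (21.1%, 95% Wilson interval 14.9% to 29.2%), against 187 of 496 others (37.7%, 33.5% to 42.0%). In ATP5G1 the coding peak lay at codon 2 with vector and codon 3 with wild-type DDX3X. A median of 15.3% of the coding bases lay under vector peaks and 19.5% under wild-type peaks, against 21.6% and 28.4% in the other genes. In CYCS, with 315 coding bases, 61.0% lay under vector peaks and 63.5% under wild-type peaks, and in NHP2L1, with 384, the values were 40.4% and 66.7%. Coding peaks numbered a median of 4.40 per kb with vector and 5.29 per kb with wild-type DDX3X.

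Vector and wild-type peaks often lay at the same positions. Of the vector peaks of the 206 genes, 1071 (79.99%) shared 1 bp or more with a wild-type peak, against 79.8% in the other qualifying genes. In the reverse direction, 58.7% of wild-type peaks overlapped a vector peak (95% Wilson interval 56.4% to 60.9%), against 55.7% (54.6% to 56.8%). In the 728 genes, 60.2% of vector peaks and 48.4% of wild-type peaks overlapped a G325E peak.

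Wild-type peaks outnumbered vector peaks in 140 of the 206 genes, were fewer in 39 and equal in 27. In the 728 other qualifying genes these numbers were 518, 127 and 83. The selection asked for at least 5 wild-type but only 3 vector peaks, which tilts these counts in both sets. The wild-type list was 1.78 times as long as the vector list, and after scaling to list length the median log2 ratio of wild-type to vector peaks was -0.51, against -0.41 in the other qualifying genes. After that scaling, 6 genes had a ratio of at least 2-fold in favour of wild-type DDX3X and 28 in favour of vector. Among the 728 others these numbers were 24 and 97. The scaling decided this split. Set to the median ratio of all qualifying genes instead, the median log2 ratio was -0.09. Then 15 genes had such a ratio in favour of wild-type DDX3X and 7 in favour of vector, against 66 and 21 of the others. Qualifying genes had to have 3 vector peaks, which removes genes that were low with vector.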

How the data were processed

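Ribosome-protected fragments of HEK293T cells were sequenced by the authors, 1 library per construct. Per the labels and the study's methods, adapters were removed with cutadapt, reads of at least 21 bp were aligned to hg19 with BWA (version 0.5.5), and peaks were called in each sample where coverage reached 10 and were reviewed by hand. The deposited values are genome positions with HOMER-style annotation, without read counts or signal. Each peak was given the gene of the RefSeq accession in its annotation, or else the nearest gene name, and peaks were counted per gene. Members and gene lists were chosen with earlier results of these data known. Genes fixed to be named with values were the 20 with the most vector and wild-type peaks, PNN, and up to 4 per gene list. Values of some other genes, such as HMGB3, CUL1 and TNXB, were added outside that rule. Positions were laid over GENCODE release 44 lifted to GRCh37 with pysam (version 0.24.0), and a canonical transcript was used for each gene. Of the 206 genes, 202 matched the annotation by identifier, symbol or RefSeq synonym. Wilson intervals came from statsmodels (version 0.14.6). The counting and position steps were tested on simulated data. The sequences shown are hg19 genome sequence. Of the sequences fixed for display, those of C1orf35 and TRAP1, of 11 and 6 bases, are not printed. A few genes are counted but not reported here by name.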

Additional observations from a re-analysis of the deposited data

How the results depend on the processing

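Of 12 other settings, 11 were planned and 1, genes with peaks on their own exons, was chosen after seeing the data. The number of genes without a G325E peak, 206, went to 137 with only untranslated region and exon classes (27.4% of qualifying genes), 113 with peaks within 30 bp counted as 1, 89 when each list was trimmed to an equal number of its longest peaks (17.2%), 41 with at least 10 wild-type and 6 vector peaks (12.8%), and 127 with own-exon genes alone. At least 3 wild-type and 2 vector peaks added 119 genes to the 206 (24.9% of 1307). In the other settings the number was 140 to 233, and the share over all 12 was 12.8% to 27.4%. With the nearest gene name of every row, 179 of the 206 genes were again found, and with same-strand canonical exons 94. GC content, position, overlap and ratio moved by less than their spread over genes or peaks or their Wilson interval, although the ratio went from -0.51 to -0.09 on the log2 scale when set to the median of all qualifying genes, which turned the split of genes past 2-fold from 6 against 28 to 15 against 7. The cause of these shifts was not tested. No paired analysis was possible because each construct had 1 library. Depth, and peaks just under the coverage cut-off, cannot be read from the lists.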

Other observations

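Genes without a G325E peak were found on each chromosome with a qualifying gene. Beside 22.1% of all qualifying genes, the share was 42.3% on chromosome 8 (11 of 26), 32.4% on the X chromosome (11 of 34) and 32.0% on chromosome 12 (16 of 50). It was lowest on chromosome 14 (1 of 17, 5.88%). These shares count every listed symbol. On chromosome 8 the peaks under DGAT1, KIAA1875, LOC100505676, MED30 and RDH10 lay mostly on exons of another gene. Of the 17 peaks under MTDH, 8 lay on its own exons. Along the chromosomes, the next qualifying gene after one without a G325E peak also had none in 53 of 201 cases (26.4%), and after one with G325E peaks in 151 of 710 (21.3%). Some nearby symbols carried peaks of the same gene, such as SNORA67 and SNORA48 on EIF4A1, or DYRK1B and FBL on FBL. Their part in these shares was not tested.

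A group of 5 neighbours of the TCEAL and BEX family on the X chromosome were chosen for description after their values were seen. TCEAL1 had 6 peaks with vector and 10 with wild-type DDX3X, TCEAL4 6 and 12, TCEAL8 4 and 7, WBP5 7 and 8, and BEX4 5 and 5, all with 0 G325E peaks. The nearby NGFRAP1 had 15 vector, 15 wild-type and 13 G325E peaks, and MORF4L2 had 4, 5 and 4.

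Some factors of ribosome assembly outside the fixed list were also without a G325E peak, again chosen after their values were seen. RRP15 had 4 vector and 13 wild-type peaks, NSA2 5 and 10, and RPF1 6 and 8. Other assembly factors outside the list kept G325E peaks, such as ABT1 (11 vector, 12 wild-type and 12 G325E peaks) and EBNA1BP2 (5, 5 and 2). No share was counted over such factors, so these examples do not show how common either outcome was. RRS1 is in the fixed list, but its 11 vector and 10 wild-type peaks were listed under LOC100505676, so it was not counted there. No G325E peak lay on the exons of RRS1.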
